A study of Mus musculus with 12 samples.

Results

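The lungs of wild type (WT) mice and of mice heterozygous for a loss of Has2 (Has2+/-) were compared after both had been sensitized to ovalbumin and had received it through the nose. The comparison takes 6 of the 12 RNA-seq libraries of the study: all 3 from WT and all 3 from mice labelled Has2+/- after ovalbumin, chosen by the genotype and treatment codes of the columns, across 19017 tested genes of the 49585 in the table. The other 6 libraries are 3 WT and 3 labelled Has2+/- given saline, and they serve as a side-by-side reference and in the estimate of the spread. All mice carry the label C57BL/6, all RNA came from whole frozen lung, and the ovalbumin titles give a time of 24 without a unit. Which part of Has2 the deficient allele lacks, the age of the mice, and whether each library is a separate mouse were not stated in the labels. The p-values thus describe variation among these libraries, which may be technical. Values are the authors' quantile-normalized counts ("units"), in which each library sums to 6852201, so the depth of a library is unknown. Differences are Has2+/- minus WT, by those labels, on the log2(units + 1) scale, tested with limma, with p-values adjusted over the 19017 genes and a threshold of 0.05.

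Has2 encodes one of the enzymes that spin out hyaluronan, a long sugar polymer of the matrix between cells, which cells sense through receptors such as CD44 and which is broken into fragments in inflamed tissue. In a lung sensitized to ovalbumin, the allergen sets off type 2 immunity, with eosinophils, mucus-making goblet cells and alternatively activated macrophages. Cells that receive inflammatory signals activate the transcription factors NF-kappa-B and AP-1, and a first wave of their target genes encodes brakes on the same signals.

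The tissue label was borne out by lung genes in every library: the surfactant gene Sftpc and the club cell gene Scgb1a1 lay between 53835 and 79206 units, and the alveolar type 1 gene Ager between 9258 and 13669. Among the ovalbumin libraries one stood apart. WT ovalbumin library 3 held a summed 30006 units of 13 squamous epithelium genes, against 225 to 329 in the other WT ovalbumin libraries and 218 to 620.2 in the ovalbumin libraries labelled Has2+/-. It also held 10668 units of 10 skeletal muscle genes, against 75.3 to 124 and 100.4 to 134. The saline libraries, which enter the estimate of the spread, ranged widely in the same genes: squamous from 2251 to 33210 in WT and 294 to 37728 in those labelled Has2+/-, and muscle from 3865 to 10724 and 1087 to 13422. Their part in the results was not tested. Across genes its Spearman correlation was 0.971 and 0.974 with the other WT ovalbumin libraries and 0.984 with a WT saline library, whereas the libraries labelled Has2+/- after ovalbumin correlated at 0.985 to 0.989 with each other. The count of calls over all genes is therefore given with and without WT ovalbumin library 3. Among list counts this is done for the immediate early, glucocorticoid and collagen lists only.

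Has2 itself (ENSMUSG00000022367, chr15:56665627-56694539, mm10, minus strand) was not lower in the libraries labelled Has2+/-. Its level was 3.5, 6.42 and 10.2 units in WT and 6.67, 5.75 and 11.2 in those labelled Has2+/-, so the groups overlapped (log2 difference 0.25, SE 0.41, adjusted p = 0.809, 95% confidence interval -0.61 to 1.11). A level at 50% of the WT mean would give -0.82 on this scale, which lies outside that interval. A gene-level value counts reads from all exons, and every direction below rests on the genotype codes of the columns, which Has2 does not bear out. The other synthase genes stood at 35.9, 27.8 and 19.1 against 21.1, 30 and 26.7 for Has1, a difference of -0.06 (adjusted p = 0.951), and at 83.6, 80.8 and 58.3 against 100.1, 116 and 99.5 for Has3, a difference of 0.51 (adjusted p = 0.141). The Has3 groups did not overlap, but the difference did not pass.

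After ovalbumin 112 genes were higher and 69 lower in the libraries labelled Has2+/-, which is 0.589% and 0.363% of the genes tested. The 181 together are 0.952%, and in all of them the groups did not overlap, as was true of 17.5% of all tested genes. At an unadjusted p under 0.05 there were 1829 higher (9.62%) and 1222 lower (6.43%), together 16%. The median difference over all tested genes was 0.01, and the medians given for gene lists below are to be read beside it. Counts of called members in the lists and families below are likewise to be read beside the shares of 0.589% higher and 0.363% lower. Most calls were of modest size: the median absolute log2 difference was 0.45 among the higher and 0.51 among the lower genes. The number of calls depended on single libraries and on the test. It was 32 higher and 23 lower without WT ovalbumin library 1, 73 and 30 without library 2 and 53 and 39 without library 3 of that group. It was 11 and 6 without Has2+/- ovalbumin library 2, 19 and 20 without library 3 of that group, and 462 and 308 without its library 1. Without 1 saline library, which bears on the estimate of the spread and on which genes are tested, it was 48 to 64 and 36 to 50 (48 and 36, 52 and 47 and 51 and 37 without WT libraries 1, 2 and 3, and 57 and 49, 60 and 50 and 64 and 46 without the Has2+/- ones). With the 6 ovalbumin libraries fitted alone it was 2 and 5, and with another scaling of the libraries (median of ratios) it was 82 and 89, so that the excess of higher over lower calls was not kept. The 181 genes kept their direction in every alternative in which they were tested.

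**Figure D1:**
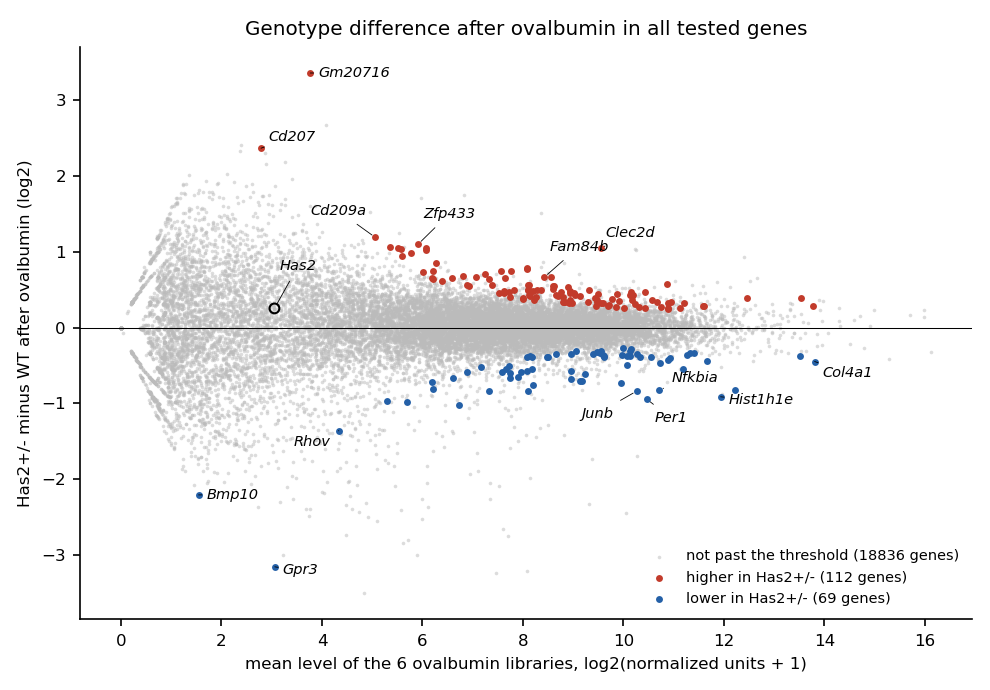
Each point is 1 of 19017 genes, with its mean level in the 6 ovalbumin libraries on the x axis and the log2 difference, Has2+/- minus WT, on the y axis. The 112 higher genes are red and the 69 lower genes blue; Has2 (open circle) lies near 0, and the calls at high levels are mostly below 1 in size.

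Nfkbia, Clec2d and Fam84b passed in all 20 alternatives, and 12 of the 181 genes passed without each of the 12 libraries in turn. Nfkbia (ENSMUSG00000021025, chr12:55489411-55492647) encodes I-kappa-B-alpha, which holds NF-kappa-B in the cytoplasm and is itself an NF-kappa-B target. It stood at 1985, 2227 and 2204 units in WT and at 1174, 1201 and 1258 in the libraries labelled Has2+/-. Every library labelled Has2+/- lay well below every WT library (log2 difference -0.82, SE 0.073, adjusted p = 4.26e-05; adjusted p 3.15e-05 to 0.0135 over the alternatives). Clec2d (ENSMUSG00000030157, chr6:129180615-129186534) encodes a lectin-like surface protein that is a ligand of an inhibitory receptor of natural killer cells. It stood at 504, 494 and 463 in WT and at 1075, 950.5 and 988 in those labelled Has2+/-, with no overlap (log2 difference 1.04, SE 0.072, adjusted p = 1.73e-06; 3.05e-06 to 0.00124). Fam84b (ENSMUSG00000072568, chr15:60818994-60853778), which lies on the same chromosome as Has2, stood at 250.4, 272 and 274 and 422, 438 and 401 (log2 difference 0.66, SE 0.08, adjusted p = 0.00198). The other 9 genes that passed without each library were Junb, Cebpb, Gadd45g, Plk3 and 1700017B05Rik among the lower and Zfp433, Zfp950, Lifr and Crebrf among the higher ones.

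In the libraries labelled Has2+/- the NF-kappa-B inhibitor genes Nfkbia and Tnfaip3 were lower. In the list of NF-kappa-B subunits and inhibitors 2 of 15 tested genes were lower (13.3% beside 0.363% of all genes) and 0 higher. The median was -0.27, with 1 positive difference. The second was Tnfaip3 (ENSMUSG00000019850, chr10:19000910-19015657), which encodes A20, an enzyme that edits ubiquitin chains and shuts off NF-kappa-B signalling. It stood at 742, 724 and 706 in WT and 583, 451 and 404 in those labelled Has2+/-, where library 1 was nearest to WT (log2 difference -0.61, SE 0.10, adjusted p = 0.012). Its call was lost without Has2+/- ovalbumin libraries 2 or 3 (adjusted p = 0.0686 and 0.0526). The subunit genes Relb and Nfkb2 stood at -0.33 (adjusted p = 0.253) and -0.37 (adjusted p = 0.269), and Tnip1, whose product works with A20, at -0.27 (adjusted p = 0.102); these 3 did not pass. Unadjusted in limma (p under 0.05), 0 of the 15 were higher and 8 lower, beside 9.62% and 6.43% of all genes. The summed level of the list was 9028 to 10150 units in WT and 6976 to 7861 in the libraries labelled Has2+/-. In whole lung, less RNA per cell and fewer of the cells that make it cannot be told apart, here or below.

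The promoters of these brakes, of the clock gene Per1 and of Clec2d are shown: Nfkbia and Tnfaip3 are the called NF-kappa-B inhibitor genes, Per1 the called clock gene, and Clec2d the higher gene that also passed under saline. They are from RefSeq (GRCm38.p6), 250 bases before to 50 after the annotated start, on the strand of the gene. For Nfkbia and Clec2d that start is the start of the gene coordinates given here. For Tnfaip3 it lies 247 bases, and for Per1 3732 bases, inside the gene coordinates, so the Per1 window lies within the gene. Capitals mark matches to any of 5 motifs searched on both strands: the kappa-B site, TGANTCA (AP-1), TGACGTCA (cyclic AMP response element), CACGTG (E-box) and the CArG box. The frequent GC box, GGGCGG, was also counted and is left in lower case.
Nfkbia, chr12:55492598-55492897, minus strand: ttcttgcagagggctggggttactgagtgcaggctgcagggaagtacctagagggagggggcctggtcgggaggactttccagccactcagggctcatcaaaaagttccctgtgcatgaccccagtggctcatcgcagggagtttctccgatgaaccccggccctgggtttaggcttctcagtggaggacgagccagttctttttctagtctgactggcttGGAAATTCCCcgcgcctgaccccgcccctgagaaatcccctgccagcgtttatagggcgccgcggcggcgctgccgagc
Tnfaip3, chr10:19015361-19015660, minus strand: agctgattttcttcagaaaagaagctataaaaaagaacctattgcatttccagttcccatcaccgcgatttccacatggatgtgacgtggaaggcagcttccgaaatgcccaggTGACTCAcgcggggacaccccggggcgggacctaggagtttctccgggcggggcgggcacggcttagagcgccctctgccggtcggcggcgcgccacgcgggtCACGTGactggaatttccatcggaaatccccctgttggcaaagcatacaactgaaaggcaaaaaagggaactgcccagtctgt
Per1, chr11:69098699-69098998, plus strand: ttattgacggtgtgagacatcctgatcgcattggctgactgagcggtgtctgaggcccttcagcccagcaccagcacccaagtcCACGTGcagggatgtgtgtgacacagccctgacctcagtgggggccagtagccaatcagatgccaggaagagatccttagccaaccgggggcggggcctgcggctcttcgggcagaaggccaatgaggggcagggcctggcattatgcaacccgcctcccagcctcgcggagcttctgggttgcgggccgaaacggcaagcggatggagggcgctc
Clec2d, chr6:129180365-129180664, plus strand: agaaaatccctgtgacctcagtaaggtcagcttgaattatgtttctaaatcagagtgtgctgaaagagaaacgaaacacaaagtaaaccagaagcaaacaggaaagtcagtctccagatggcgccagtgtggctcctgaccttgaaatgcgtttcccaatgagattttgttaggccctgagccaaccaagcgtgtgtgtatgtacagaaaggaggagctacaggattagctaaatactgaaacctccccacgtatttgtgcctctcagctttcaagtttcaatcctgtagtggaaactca
The Nfkbia window holds a kappa-B match that starts at position -29 from the start site. The Tnfaip3 window holds an AP-1 match at -136 and an E-box at -33, the Per1 window an E-box at -166, and the Clec2d window no match. Looser spellings of the kappa-B site, such as ggaaatcccc in the Tnfaip3 window, were not searched. A window without a strict match may therefore still hold such a site, and the shares below leave looser sites out. A kappa-B match lay in 1.46% of the 13536 promoters of tested genes found in the table, in 2 of 57 promoters of lower genes (3.51%) and in 1 of 86 of higher genes (1.16%). For AP-1 the shares were 5.89%, 10.5% and 10.5%, and for the E-box 9.16%, 14% and 11.6%. For the cyclic AMP response element they were 2.79%, 7.02% and 4.65%, and for the CArG box 1.3%, 1.75% and 4.65%. The GC box lay in 57.2%, 71.9% and 57%, and the median GC content of the windows was 59.3%, 62.3% and 58.3%. These are counts of letters, not of bound sites.

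Of 21 immediate early and AP-1 genes, the first that a stimulated cell transcribes, 6 were lower (28.6% beside 0.363% of all genes) and 0 higher. Their median was -0.22, with 5 positive differences. Junb (ENSMUSG00000052837, chr8:84974484-84978718), a subunit of AP-1, stood at 1758, 1342 and 1630.2 in WT and 1006, 854 and 786 in the libraries labelled Has2+/- (log2 difference -0.84, SE 0.11, adjusted p = 0.00563). The lowest WT library still exceeded the highest of those labelled Has2+/-. The Junb call stood without each library in turn. It was lost with the 6 ovalbumin libraries alone (adjusted p = 0.0661) and without trend and robust estimation (adjusted p = 0.0671). Jun and Jund, the other AP-1 subunits of that family, stood at 2890.2, 3009.8 and 3235 against 2340.2, 2452 and 2411 (-0.34, adjusted p = 0.012) and at 1243, 1232 and 1174 against 910.3, 904 and 1002 (-0.37, adjusted p = 0.012). Ier2, an immediate early nuclear protein, stood at 618, 539 and 620.4 against 390.2, 384 and 421 (-0.57, adjusted p = 0.0075). Each of these 3 calls was lost without Has2+/- ovalbumin library 2 (adjusted p = 0.0566 for Jun, 0.0762 for Jund and 0.0554 for Ier2). With the correction for GC content and length none of the 3 passed, and Jund stood at -0.15, adjusted p = 0.302. Zfp36, whose product tristetraprolin speeds the decay of cytokine mRNAs, and Maff, a small partner of basic leucine zipper factors, were lower, at a log2 difference of -0.49 (adjusted p = 0.0432) and -0.51 (adjusted p = 0.0362). The call of Zfp36 was lost without WT ovalbumin libraries 2 or 3, Has2+/- ovalbumin libraries 2 or 3 or any saline library (adjusted p = 0.0535 to 0.156), and that of Maff without WT ovalbumin libraries 1, 2 or 3, Has2+/- ovalbumin libraries 2 or 3, WT saline libraries 1 or 3 or Has2+/- saline library 3 (adjusted p = 0.0514 to 0.131). Fosb, at 0.64 (adjusted p = 0.312), did not pass. With 1 ovalbumin library left out in turn 1 to 7 members were lower, 4 without WT library 3, and 1 was lower after the correction for base composition described below. Unadjusted in limma (p under 0.05), 1 of the 21 was higher and 7 lower. The summed level of the list was 15110 to 16601 in WT and 12703 to 12931 in the libraries labelled Has2+/-.

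Cebpb, Gadd45g, Plk3, Csrnp1, Cdkn1a and Gpr3 were lower too. Cebpb (ENSMUSG00000056501, chr2:167688915-167690418), a transcription factor of acute-phase and macrophage genes, stood at 684, 553 and 592 in WT and 422, 377 and 344 in the libraries labelled Has2+/- (log2 difference -0.68, SE 0.092, adjusted p = 0.00458). Gadd45g, a growth-arrest gene induced by stress, stood at 388, 306 and 349 against 218, 205 and 164 (log2 difference -0.83, SE 0.12, adjusted p = 0.00676), and the stress-responsive polo-like kinase gene Plk3 at 206, 203 and 202 against 126, 94 and 123 (log2 difference -0.84, SE 0.13, adjusted p = 0.00729). The groups of all 3 were apart, and all 3 calls stood without each library in turn but were lost with the 6 ovalbumin libraries alone and without trend and robust estimation. The Cebpb call was also lost with the correction for GC content and length (-0.45, adjusted p = 0.0706). Csrnp1, a nuclear protein gene, stood at 105, 148 and 169 against 69.2, 70.2 and 63.8 (log2 difference -1.02, SE 0.17, adjusted p = 0.012), with the wider spread in WT. Its call was lost without Has2+/- ovalbumin libraries 2 or 3 (adjusted p = 0.0566 and 0.0586). Cdkn1a, which encodes the cell cycle inhibitor p21, was lower, at a log2 difference of -0.70 (adjusted p = 0.029), a call lost without WT ovalbumin libraries 1, 2 or 3, Has2+/- ovalbumin libraries 2 or 3 or WT saline library 3 (adjusted p = 0.0517 to 0.138). Gpr3, a receptor that signals through cyclic AMP without a ligand, stood at 8.83, 15.2 and 17 against 0, 0 and 3.08. Its difference of -3.15 (adjusted p = 0.029) was the largest of the lower genes, but these values lie near the bottom of the scale, and over the alternatives, pseudocounts included, it ran from -5.39 to -1.64. That call was lost without WT ovalbumin libraries 1, 2 or 3 or Has2+/- ovalbumin library 2 (adjusted p = 0.0501 to 0.142).

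**Figure D2:**
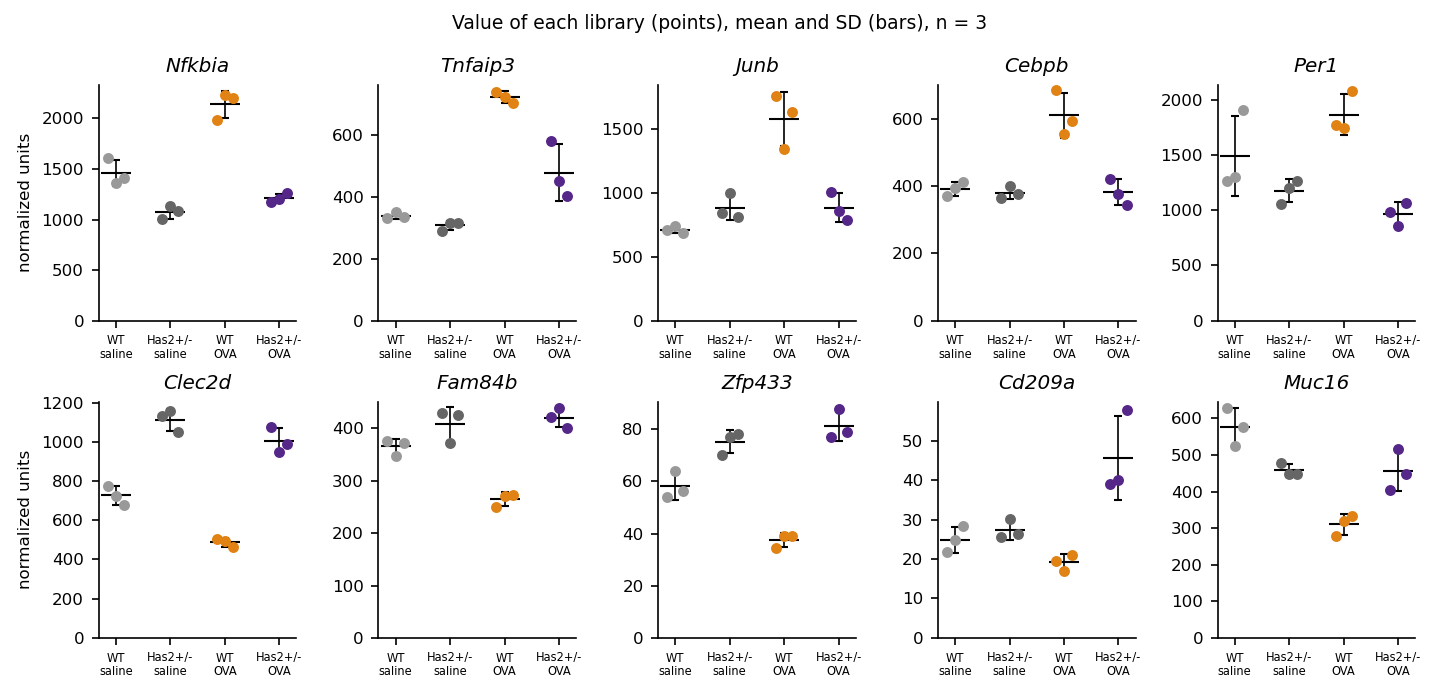
Normalized units of 10 genes in each of the 12 libraries (points), with the mean and SD of each group (black, n = 3), for WT and Has2+/- under saline and after ovalbumin (OVA). In the upper row (Nfkbia, Tnfaip3, Junb, Cebpb, Per1) the 3 WT ovalbumin libraries lie above the 3 Has2+/- ovalbumin libraries, and in the lower row (Clec2d, Fam84b, Zfp433, Cd209a, Muc16) they lie below them.

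Of 15 glucocorticoid receptor targets 2 were lower (13.3% beside 0.363% of all genes) and 0 higher, with a median of -0.49 and 2 positive differences. They were Cdkn1a and Per1 (ENSMUSG00000020893, chr11:69095217-69109960), a repressor of the circadian clock that glucocorticoids induce. Per1 stood at 1769.8, 1740.2 and 2075 in WT and at 987, 852 and 1064 in the libraries labelled Has2+/- (log2 difference -0.94, SE 0.15, adjusted p = 0.0253), and its call was lost without WT ovalbumin libraries 1, 2 or 3 or Has2+/- ovalbumin libraries 2 or 3 (adjusted p = 0.0519 to 0.104). The list's next members were the kinase gene Sgk1 at -0.50 (adjusted p = 0.0541) and the receptor gene itself, Nr3c1, at 0.23 (adjusted p = 0.0615), which did not pass. Unadjusted in limma (p under 0.05), 1 of the 15 was higher and 9 lower, beside 9.62% and 6.43% of all genes. The groups did not overlap in 10 of the 15, beside 17.5% of all tested genes. The summed level of the list was 17043 to 18138 units in WT and 12384 to 12528 in the libraries labelled Has2+/-. Per1 was also the 1 called gene among 19 clock genes, whose median was -0.05 with 9 positive differences. Without WT ovalbumin library 3 neither glucocorticoid target passed.

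The 2 calls among replication-dependent histone genes were both of linker histones. Of 14 tested replication-dependent histone genes 2 were lower (14.3% beside 0.363% of all genes, median -0.08): Hist1h1e and Hist1h1c, which encode linker histones. Hist1h1e stood at 4850.4, 5424 and 5012 in WT and 2271, 2742 and 3176 in the libraries labelled Has2+/- (log2 difference -0.91, SE 0.13, adjusted p = 0.012), and Hist1h1c at 6049, 6303 and 5906 against 3176, 3168 and 4073 (log2 difference -0.82, SE 0.14, adjusted p = 0.029). In neither gene did the groups overlap. The first call was lost without WT ovalbumin library 1 or Has2+/- ovalbumin library 2 (adjusted p = 0.0503 and 0.0649), the second without WT ovalbumin libraries 1, 2 or 3 or Has2+/- ovalbumin library 2 (adjusted p = 0.0626 to 0.124). All 6 tested genes named Hist1h1, a set chosen after their values were seen, had negative differences with a median of -0.60. Outside the list, the histone H3 gene H3f3b, also chosen after its values were seen, was lower (log2 difference -0.44, adjusted p = 0.0224). That call was lost without WT ovalbumin library 1 or Has2+/- ovalbumin libraries 2 or 3 (adjusted p = 0.0598 to 0.131). With the correction for GC content and length it passed (adjusted p = 0.0168).

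Of 14 type 2 cytokine, alarmin and receptor genes 1 was lower and 0 higher (7.14% beside 0.363% of all genes; median -0.03), and before adjustment 3 higher and 2 lower, beside 16% of all genes in either direction. It was Il4ra (ENSMUSG00000030748, chr7:125552120-125579474), the receptor chain shared by interleukins 4 and 13, at 2421, 2152 and 1914 in WT against 1684, 1582 and 1558 (log2 difference -0.42, SE 0.086, adjusted p = 0.0331). Its call was lost without WT ovalbumin libraries 1 or 2, Has2+/- ovalbumin libraries 2 or 3, WT saline libraries 1 or 3 or Has2+/- saline library 3 (adjusted p = 0.0521 to 0.143). Gata3, the transcription factor of type 2 lymphocytes, stood at 109, 90.3 and 108 against 149, 149 and 163; the groups did not overlap, and the difference did not pass (0.58, adjusted p = 0.0637). None of 10 type 2 chemokine and receptor genes passed in limma (median 0.02; 1 higher and 0 lower with p below 0.05 before adjustment), nor did any of 16 goblet cell and mucus genes (median 0.22, 10 positive; 0 higher and 0 lower). The mucus gene Fcgbp stood at 1138, 648 and 600.4 in WT and 1169.7, 1324 and 2382 in the libraries labelled Has2+/-. The groups did not overlap, and the difference did not pass (1.02, adjusted p = 0.36). Among 8 tested eosinophil genes 0 passed in limma (0 higher and 2 lower unadjusted), and their summed level was 531 to 665 units in WT and 512 to 628 in those labelled Has2+/-. In the list of alternative macrophage activation 1 of 15 genes was higher, Cd209a, and 1 lower, Il4ra again. Alox15, a lipoxygenase gene of that program, stood at 158, 146 and 158 against 123, 81.5 and 72.8; the groups did not overlap, and the difference did not pass (-0.77, adjusted p = 0.087).

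All 21 tested interferon-induced genes had negative differences (median -0.35), and 0 passed in limma, also at an unadjusted p under 0.05. The T cell attractants Cxcl10 and Cxcl9 stood at 248, 113 and 149 against 166, 102 and 29.2 (-1.01, adjusted p = 0.394) and at 365, 317 and 224 against 225, 188 and 63.8 (-1.08, adjusted p = 0.416). In both, Has2+/- ovalbumin library 3 was far below library 1 of its own group, and the groups overlapped. Of 16 monocyte and neutrophil chemokine genes 13 were negative and 0 passed (median -0.39; 1 higher and 2 lower unadjusted). Their summed level went the other way, without overlap, from 5733 to 6828 units in WT and 6897 to 7374 in those labelled Has2+/-. Most of it was Cxcl15, at 4294, 4977 and 4054 in WT against 5226, 5384 and 5602 (0.29, adjusted p = 0.0651). All 13 class I and immunoproteasome genes (median -0.33) and all 11 class II presentation genes (median -0.18) were negative too, with 0 passing (0 higher and 1 lower, and 0 higher and 0 lower, unadjusted). Neutrophil genes had a summed level of 1580.3 to 2430.1 units in WT and 1290.1 to 2218 in the libraries labelled Has2+/-, and T cell genes 839 to 1154 and 824 to 984. In 0 of the 21 interferon-induced genes, 0 of the 13 and 0 of the 11 presentation genes were the groups apart, beside 17.5% of all tested genes. The ranges of the groups thus overlapped in every member. Among 19 proinflammatory mediators 15 were negative (median -0.36; 1 higher and 6 lower unadjusted), and the 1 that passed was higher. Summed over the list, the level was 7077 to 11726 units in WT and 3606 to 6838 in those labelled Has2+/-, without overlap. The member that passed was Ptgs2, which encodes the inducible cyclooxygenase of prostaglandin synthesis. It stood at 42.3, 42.6 and 42.2 in WT and 114, 90.5 and 64.2 in the libraries labelled Has2+/- (log2 difference 1.02, SE 0.21, adjusted p = 0.0366), with hardly any spread in WT; the call was lost without WT ovalbumin libraries 1, 2 or 3, Has2+/- ovalbumin library 2, WT saline libraries 1 or 3 or Has2+/- saline library 2 (adjusted p = 0.0532 to 0.153).

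**Figure D3:**
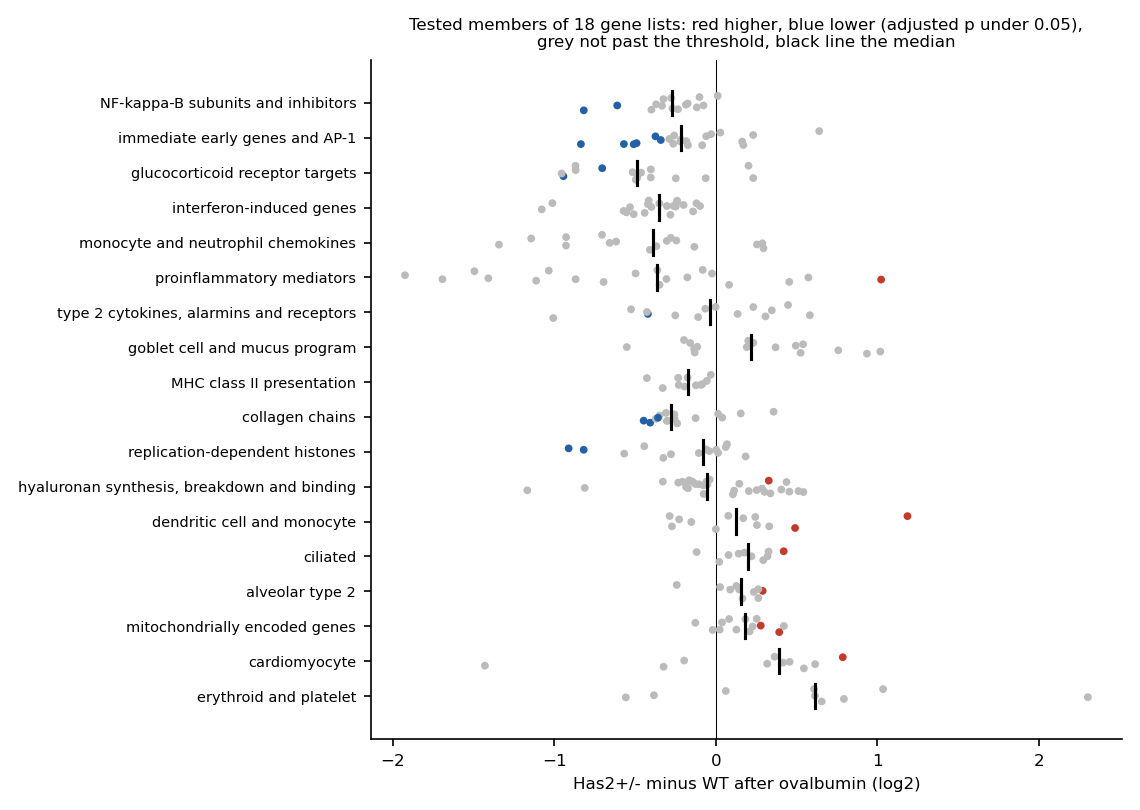
Log2 difference, Has2+/- minus WT after ovalbumin (x axis), of each tested member of 18 gene lists (rows), with members that passed in red (higher) or blue (lower) and the list's median as a black line. The NF-kappa-B list (median -0.27) and the immediate early list (median -0.22) hold 2 and 6 lower members, while the 21 interferon-induced genes all lie below 0 and none passed.

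Of 16 collagen chain genes 3 were lower (18.8% beside 0.363% of all genes) and 0 higher (median -0.28). Before adjustment 1 was higher and 9 lower at p under 0.05 in limma. Col4a1, a chain of the basement membrane collagen, stood at 16372, 16757 and 16372 in WT against 13138, 11964 and 11265 (log2 difference -0.45, SE 0.094, adjusted p = 0.0425). Its partner chain gene Col4a2, its neighbour on chromosome 8, missed the threshold at -0.31 (adjusted p = 0.0602). Col5a1, a chain of a fibrillar collagen, was lower, at a log2 difference of -0.41 (adjusted p = 0.0331), and Col18a1, whose product yields endostatin, by -0.36 (adjusted p = 0.0293). No collagen gene passed without WT ovalbumin library 3, and 0 to 7 did with other ovalbumin libraries left out; none passed after the correction for base composition. In the hyaluronan list 1 of 31 tested genes was higher (median -0.05). It was Tmem2, which encodes a hyaluronidase of the cell surface, at 1934, 2222 and 2101 in WT against 2557, 2421 and 2879.5 (log2 difference 0.33, SE 0.069, adjusted p = 0.0366). Its call was lost without WT ovalbumin libraries 1 or 3, Has2+/- ovalbumin libraries 2 or 3 or any saline library (adjusted p = 0.0538 to 0.15). The hyaluronan-binding proteoglycan gene Vcan stood at 596, 467 and 517 against 516, 440.4 and 319.6, which overlapped (-0.33, adjusted p = 0.301).

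Other genes among the 15 named for the largest lower differences had varied roles. Sema7a, a membrane-anchored semaphorin, stood at 1309.9, 1195 and 1194 in WT and 868, 699.6 and 671 in the libraries labelled Has2+/- (log2 difference -0.73, SE 0.11, adjusted p = 0.00789); the call was lost without Has2+/- ovalbumin library 2 (adjusted p = 0.0566). Runx3, a transcription factor of lymphocytes, stood at 442, 367 and 295 against 236, 202 and 210.1 (-0.75, adjusted p = 0.0293), a call lost without WT ovalbumin libraries 1 or 2, Has2+/- ovalbumin libraries 2 or 3 or WT saline library 1 (adjusted p = 0.0532 to 0.143). Cldn4, a claudin of epithelial tight junctions, stood at 81.5, 53.6 and 66.9 against 39.1, 35 and 26.4 (-0.98, adjusted p = 0.0418), whereas Cldn18, the claudin of alveolar epithelium, was higher at 2861, 2762 and 2767 against 3336, 3421 and 3454 (0.28, adjusted p = 0.0293). The Cldn4 call was lost without WT ovalbumin libraries 1 or 3, Has2+/- ovalbumin libraries 2 or 3 or any saline library (adjusted p = 0.0517 to 0.157), the Cldn18 call without WT ovalbumin libraries 1, 2 or 3, Has2+/- ovalbumin libraries 2 or 3 or WT saline library 2 (adjusted p = 0.0509 to 0.124). Rhov was lower, at a log2 difference of -1.36 (adjusted p = 0.0447), Ccdc184 by -0.97 (adjusted p = 0.046) and Phldb3 by -0.81 (adjusted p = 0.0294). These 3 calls were lost without 11, 12 and 5 of the 12 libraries: Rhov without WT ovalbumin libraries 1, 2 or 3, Has2+/- ovalbumin libraries 2 or 3 or any saline library (adjusted p = 0.0529 to 0.164), Ccdc184 whichever library was left out (adjusted p = 0.0503 to 0.167), and Phldb3 without WT ovalbumin libraries 1 or 3, Has2+/- ovalbumin libraries 2 or 3 or WT saline library 3 (adjusted p = 0.051 to 0.106). Fth1, the heavy chain of the iron store ferritin, was the 1 lower gene of 14 in iron handling (-0.38, adjusted p = 0.0421), a call lost without WT ovalbumin libraries 1 or 2, Has2+/- ovalbumin libraries 2 or 3 or any saline library (adjusted p = 0.0536 to 0.161).

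Of 12 dendritic cell and monocyte markers 2 were higher (16.7% beside 0.589% of all genes) and 0 lower (median 0.12). Cd209a (ENSMUSG00000031494, chr8:3743397-3748984), a lectin that binds pathogen sugars, stood at 19.6, 17.1 and 21 in WT and 39, 40 and 57.8 in the libraries labelled Has2+/- (log2 difference 1.19, SE 0.22, adjusted p = 0.022). Clec9a, a receptor for dead cells on cross-presenting dendritic cells, stood at 246, 275 and 298 against 384, 358 and 407 (log2 difference 0.49, SE 0.11, adjusted p = 0.0425). Cd207, or langerin, a lectin of Langerhans and related dendritic cells, stood at 1.92, 2.17 and 0 against 5.5, 11.9 and 13.9, close to the bottom of the scale (2.36, adjusted p = 0.0425; 1.25 to 3.67 over the alternatives). The groups did not overlap in any of these 3 genes, of which Cd207 is not in the list. All 7 tested genes of the Cd209 family, a set chosen after values were seen, had positive differences (median 1.07), beside 52.2% of all tested genes. Of the 7, Cd209a was the 1 that passed (14.3% beside 0.589% of all genes). Their calls were lost, for Cd209a, without WT ovalbumin libraries 1 or 2 or Has2+/- ovalbumin libraries 2 or 3 (adjusted p = 0.0567 to 0.124); for Clec9a, without WT ovalbumin libraries 1 or 2, Has2+/- ovalbumin libraries 2 or 3, WT saline libraries 1 or 2 or Has2+/- saline library 1 (adjusted p = 0.0588 to 0.157); and for Cd207, without WT ovalbumin libraries 1 or 3, Has2+/- ovalbumin libraries 2 or 3 or any saline library (adjusted p = 0.0509 to 0.185). Of the 12 markers 7 had positive differences. Among those that did not pass, Ccr7 stood at -0.29 (adjusted p = 0.177), Itgax at -0.27 (adjusted p = 0.672) and Xcr1 at 0.33 (adjusted p = 0.609). The summed level of the list was 2655 to 4029 units in WT and 2825 to 3818 in the libraries labelled Has2+/-.

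Zinc finger genes made up 5 of the 15 genes named for the largest higher differences. Zfp433 (ENSMUSG00000096795, chr10:81704825-81726686) stood at 34.4, 38.9 and 38.9 in WT and 76.9, 87.8 and 78.8 in the libraries labelled Has2+/- (log2 difference 1.10, SE 0.15, adjusted p = 0.00458), and Zfp950 at 196, 169 and 236 against 313, 319.8 and 389 (log2 difference 0.77, SE 0.11, adjusted p = 0.00676). Both passed without each library in turn. Zfp52, Zfp874b and Zfp595 were higher, at a log2 difference of 1.05 (adjusted p = 0.0425), 0.98 (adjusted p = 0.012) and 0.74 (adjusted p = 0.0494). The calls were lost, for Zfp52, without WT ovalbumin libraries 1 or 3, Has2+/- ovalbumin libraries 2 or 3 or any saline library (adjusted p = 0.0541 to 0.157); for Zfp874b, without Has2+/- ovalbumin libraries 2 or 3 (adjusted p = 0.0517 and 0.0646); and for Zfp595, without WT ovalbumin libraries 2 or 3, Has2+/- ovalbumin libraries 2 or 3 or any saline library (adjusted p = 0.0675 to 0.193). Of 385 tested genes named Zfp, a set chosen after values were seen, 15 were higher (3.9% beside 0.589% of all genes). In the other direction 1, Zfp36, was lower (0.26% beside 0.363%). Positive differences were held by 288 (74.8% beside 52.2% of all tested genes), and the median was 0.23. Transcripts of these genes have a low GC content, with a median of 44.5% against 49.7% over all tested genes, and after the correction for GC content and length Zfp433 passed (adjusted p = 0.0168) and Zfp950 did not (adjusted p = 0.0593). These genes resemble one another in sequence, and how reads shared between them were counted is not given in the sources used here.

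Some genes of cilia and mitochondria were higher, as was the membrane mucin gene Muc16. Of 10 ciliated cell markers 1 was higher (median 0.20): Dnah5, a heavy chain of the dynein motor of motile cilia, at 934, 1032 and 996 in WT against 1160.3, 1383 and 1433 (log2 difference 0.42, SE 0.084, adjusted p = 0.0293). The related chain genes Dnah6 and Dnah12 also passed, at 0.43 (adjusted p = 0.0294) and 0.45 (adjusted p = 0.0336). That makes 3 of 15 tested genes named Dnah (20% beside 0.589% of all genes), a set chosen after values were seen. The Dnah5 call was lost without WT ovalbumin libraries 1 or 3, Has2+/- ovalbumin libraries 2 or 3 or WT saline library 1 (adjusted p = 0.0534 to 0.148), that of Dnah6 without WT ovalbumin library 1, Has2+/- ovalbumin libraries 2 or 3 or WT saline library 1 (adjusted p = 0.0534 to 0.145), and that of Dnah12 without WT ovalbumin libraries 1 or 2, Has2+/- ovalbumin libraries 2 or 3, WT saline libraries 1 or 2 or Has2+/- saline library 2 (adjusted p = 0.0516 to 0.156). The summed level of the ciliated markers was 5165 to 6055 in WT and 6038 to 6996 in the libraries labelled Has2+/-; the part of the number of ciliated cells in these differences was not tested. Muc16 (ENSMUSG00000109564, chr9:18495455-18674530), a membrane mucin of airway epithelium, stood at 279, 321 and 333 against 405, 517 and 448 (log2 difference 0.55, SE 0.097, adjusted p = 0.0129), a call lost without WT ovalbumin library 1 or Has2+/- ovalbumin libraries 2 or 3 (adjusted p = 0.055 to 0.0895). Lamp3, a lysosomal protein of alveolar type 2 cells, was the 1 call among 10 markers of those cells, at 2855, 2774 and 2602 against 3445, 3200.5 and 3411 (0.29, adjusted p = 0.0366), a call lost without WT ovalbumin libraries 1, 2 or 3, Has2+/- ovalbumin libraries 2 or 3, WT saline libraries 1, 2 or 3 or Has2+/- saline library 1 (adjusted p = 0.0501 to 0.131). Of 13 mitochondrially encoded genes 2 were higher (15.4% beside 0.589% of all genes, median 0.18). They were mt-Cytb at 9894, 10326 and 10326 against 12920, 14703 and 12550 (0.39, adjusted p = 0.012) and mt-Co1 at 12160, 13416 and 12550 against 15138, 15519 and 15519 (0.28, adjusted p = 0.0215). The first of these was lost without Has2+/- ovalbumin library 2 (adjusted p = 0.078), the second without WT ovalbumin libraries 1 or 3 or Has2+/- ovalbumin libraries 2 or 3 (adjusted p = 0.0626 to 0.102). With the correction for GC content and length none of Dnah5, Dnah6, Dnah12, Muc16, Lamp3, mt-Cytb and mt-Co1 passed; Muc16 stood at 0.35, adjusted p = 0.111, Lamp3 at 0.11, adjusted p = 0.439, mt-Cytb at 0.22, adjusted p = 0.161, mt-Co1 at 0.12, adjusted p = 0.314 and Dnah12 at 0.28, adjusted p = 0.177. None of 22 nuclear genes of the respiratory chain passed in limma (median -0.02; 2 higher and 2 lower unadjusted).

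Heart muscle, metabolic and developmental genes complete the largest higher differences. Myl7, the regulatory light chain of atrial myosin, stood at 194, 199.8 and 199.8 in WT and 352, 292 and 389 in the libraries labelled Has2+/- (log2 difference 0.79, SE 0.14, adjusted p = 0.0169), and Mybphl, a myosin-binding protein of atrial muscle, at 25.8, 22.2 and 27.7 against 55.3, 42.2 and 65.3 (log2 difference 1.06, SE 0.20, adjusted p = 0.022). The pulmonary veins of mice carry a sleeve of heart muscle. Of 10 heart muscle genes 1, Myl7, passed and 7 had positive differences. Before adjustment 6 were higher and 0 lower at p under 0.05 in limma. The summed level of the 10 was 4124 to 4493 units in WT against 5557 to 6951. The part of the amount of vein in each piece was not tested. The Myl7 call was lost without WT ovalbumin libraries 1, 2 or 3 or Has2+/- ovalbumin library 3 (adjusted p = 0.0522 to 0.076), that of Mybphl without WT ovalbumin libraries 1 or 2 or Has2+/- ovalbumin library 3 (adjusted p = 0.0554 to 0.119). Ppp1r3c, which targets a phosphatase to glycogen, stood at 44.8, 37.3 and 46.8 against 81.8, 96.3 and 89.5 (log2 difference 1.04, SE 0.16, adjusted p = 0.00807), a call lost without Has2+/- ovalbumin library 2 (adjusted p = 0.0566). Msmo1, an enzyme of cholesterol synthesis, stood at 149, 123 and 149.5 against 257, 206 and 249 (0.75, adjusted p = 0.0105), a call lost without Has2+/- ovalbumin library 3 (adjusted p = 0.0512). Sox11, a transcription factor of development, stood at 147, 155 and 183 against 234, 302 and 277 (0.74, adjusted p = 0.0101), a call lost without Has2+/- ovalbumin library 2 (adjusted p = 0.0666). Lifr, the receptor of leukaemia inhibitory factor, and Crebrf, a regulator of a CREB-family factor, chosen after their values were seen because they passed without each library, were higher, at a log2 difference of 0.57 (adjusted p = 0.00676) and 0.49 (adjusted p = 0.00458). Ecm2, a matrix protein gene, was higher, at a log2 difference of 0.94 (adjusted p = 0.0446), a call lost without WT ovalbumin libraries 1, 2 or 3, Has2+/- ovalbumin libraries 2 or 3 or any saline library (adjusted p = 0.058 to 0.185). Of 21 TGF-beta genes the ligand gene Bmp4 was higher (0.49, adjusted p = 0.0494), a call lost without WT ovalbumin libraries 1, 2 or 3, Has2+/- ovalbumin libraries 2 or 3 or any saline library (adjusted p = 0.058 to 0.195).

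Genes near Has2 on chromosome 15 were counted separately. Of 51 tested genes within 5 Mb of Has2, 2 were higher and 0 lower, a share of 3.92% beside 0.589% over all genes, and the median was 0.12. One was Fam84b, given above, and the other Mal2 (ENSMUSG00000024479, chr15:54571366-54602846), a membrane protein of transcytosis in epithelial cells. Mal2 stood at 831, 1041 and 1005 in WT and 1292, 1362 and 1316 in the libraries labelled Has2+/- (log2 difference 0.47, SE 0.073, adjusted p = 0.00789), a call lost without Has2+/- ovalbumin library 2 (adjusted p = 0.0566). Under saline both differences were smaller, at 0.16 for Fam84b and 0.15 for Mal2, and neither passed (adjusted p = 0.894 for each).

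Under saline the same contrast of genotypes, from libraries that the ovalbumin contrast does not use, gave 2 higher genes and 0 lower (0.0105% and 0%), the higher ones being Hamp2 and Clec2d. At an unadjusted p under 0.05 there were 496 (2.61%) and 573 (3.01%), together 5.62%. Clec2d stood at 776, 725 and 679 units in WT and 1134, 1156 and 1049.5 in the libraries labelled Has2+/- (log2 difference 0.62, adjusted p = 0.00184), in the same direction as after ovalbumin. Nfkbia stood at 1605, 1362 and 1408 against 1002, 1129.9 and 1089, again without overlap, and did not pass (-0.44, adjusted p = 0.107). Of the 112 higher genes 81 had a positive difference under saline, and of the 69 lower genes 52 a negative one, with medians of 0.07 and -0.11. In 16 of the 112 and 17 of the 69 the saline difference had the same sign and an unadjusted p under 0.05. Whether a difference itself differed between saline and ovalbumin was tested by the interaction, which passed for 1 gene upward (0.00526%) and 2 downward (0.0105%), together 0.0158%. At an unadjusted p under 0.05 there were 969 (5.1%) and 656 (3.45%), together 8.54%. The downward genes were Hamp2 and Junb, the upward one Muc16. Over 19 alternatives, 12 of them without 1 library, Junb passed in 5, Muc16 in 1 and Hamp2 in 15. The mean of Junb was 712 ± 29.9 units in WT and 884 ± 99.3 in the libraries labelled Has2+/- under saline, and 1577 ± 213 and 882 ± 113 after ovalbumin (SD, n = 3). That of Muc16 was 576 ± 51.3 in WT and 458 ± 17.3 in those labelled Has2+/- under saline, a difference of -0.33. After ovalbumin the Muc16 means were 311 ± 28.2 and 457 ± 56.1. For most other calls after ovalbumin, a different size under saline is therefore not shown. Of the 112 and the 69, 98 and 53 had an unadjusted interaction p under 0.05. The genes were chosen by their ovalbumin difference, which is part of the interaction, so these counts are raised by the choice and show nothing further.

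**Figure D4:**
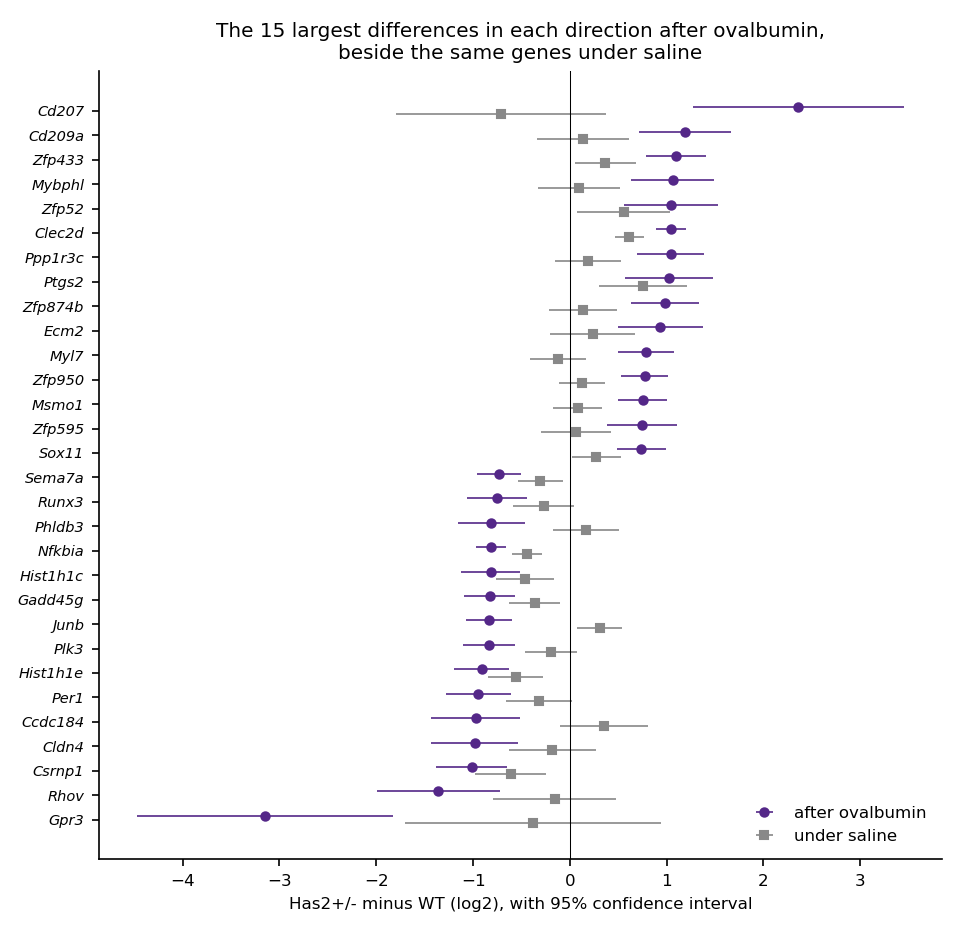
Log2 difference, Has2+/- minus WT, with its 95% confidence interval, after ovalbumin (circles) and under saline (squares) for the 15 genes with the largest difference in each direction after ovalbumin (y axis). Clec2d is the 1 gene here that passed under saline too (0.62 beside 1.04), and Junb lies at -0.84 after ovalbumin and 0.31 under saline.

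The called genes differed in base composition. The median transcript GC content was 42.1% among the higher, 56.8% among the lower and 49.7% over all tested genes, and the median length 5109.5, 2956 and 3028 bases. Genes were split into 5 equal bins by GC content. In the lowest bin 72 were higher and 2 lower, and in the highest 1 was higher and 43 lower. Across 14579 genes the Spearman correlation of the difference with GC content was -0.36 after ovalbumin and -0.10 under saline, as a description only, since genes share libraries and are not replicates. The shift lay in all 6 ovalbumin libraries. Relative to the mean of all libraries, the highest GC bin stood above the lowest by 0.06 to 0.13 (log2) in the WT ovalbumin libraries and below it (-0.17 to -0.12) in those labelled Has2+/-, and between -0.03 and 0.05 in the saline libraries. With the trend on GC content and length removed from each library, an alternative chosen after seeing the data, 15 genes were higher and 26 lower. Of the 181 calls 31 remained, 13 higher and 18 lower. Among them were Nfkbia, Junb, Tnfaip3, Gadd45g, Plk3, Csrnp1, Hist1h1e, Sema7a and Fth1 of the lower and Clec2d, Fam84b, Mal2, Lifr, Msmo1, Myl7, Mybphl, Ppp1r3c, Sox11 and Zfp433 of the higher genes. Cebpb, Per1, Cdkn1a, Cd209a, Zfp950 and Crebrf were among those that did not remain, with Crebrf at 0.30, adjusted p = 0.0661. Whether the shift arose in library preparation was not tested.

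**Figure D5:**
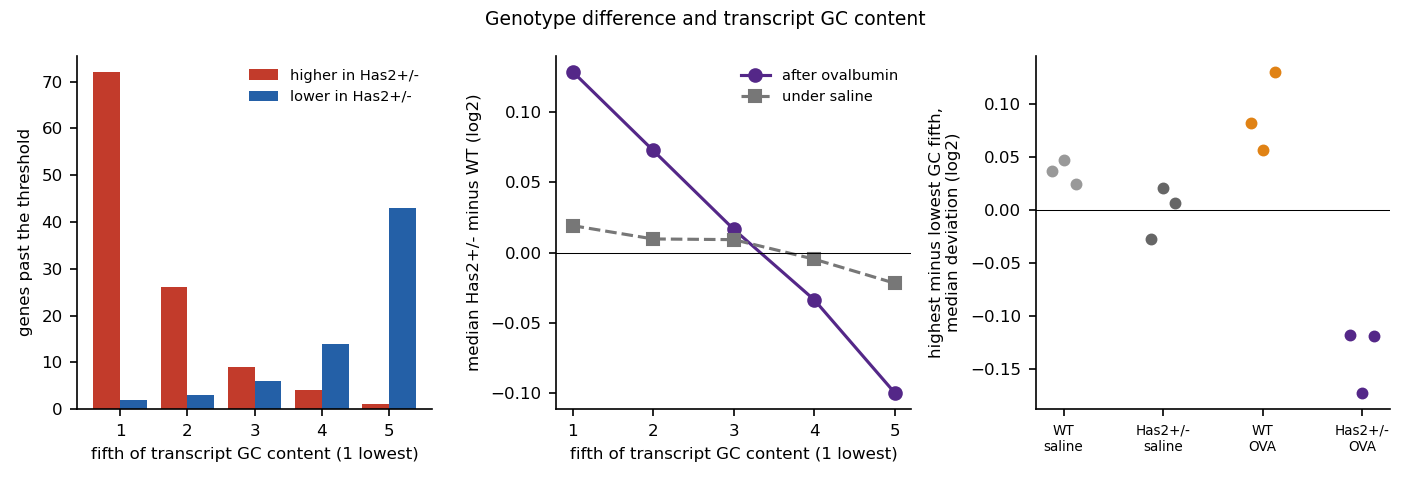
Left, number of genes past the threshold in each of 5 equal bins of transcript GC content; middle, the median log2 difference of genotypes per bin after ovalbumin and under saline; right, for each library, the median deviation (log2) of the highest GC bin minus that of the lowest. Higher calls gather in the lowest bin (72) and lower calls in the highest (43), and the ovalbumin libraries of the genotypes lie on opposite sides of 0.

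The authors' deposited table holds their own test of the same groups. It lists 70 genes with an FDR-corrected p under 0.05 for this pair, 24 with a positive and 46 with a negative fold, and 48 of the 70 are among the 181 called here (21 higher, 27 lower). The headers leave the reference group unnamed; the sign was read from the values, as positive where the libraries labelled Has2+/- were higher. In the authors' deposited table Clec2d has a fold of 2.01 and Nfkbia one of -1.80.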

How the data were processed

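Whole-lung RNA from 12 libraries in 4 groups of 3 was sequenced on a NextSeq500 after a directional library preparation, per the labels' protocols; reads refer to mm10, per the submitters' processing notes. The sources used here name neither the aligner nor the counter. The authors deposited a normalized expression value per gene and library (signal units); its sorted values are identical in the 12 libraries, so the authors' counts had been quantile-normalized, which removes differences in depth and in overall distribution. The authors also deposited 12 columns of transformed values (not used), and, for each pair of groups, a signed fold score and an FDR-corrected p-value of a test that the file headers name EDGE. Column codes were matched to groups by genotype and treatment; they do not give which titled replicate a column is.

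Genes whose mean reached 1 in any group were tested with limma 3.58.1 in R 4.3.3 on log2(value + 1), with trended, robust empirical Bayes, 1 mean per group over 12 libraries (8 residual degrees of freedom, median prior 8.4), two-sided, with Benjamini-Hochberg adjustment over 19017 genes. The test was checked on simulated data. The values are not counts, so no count test was used. Named genes are the 15 largest calls in each direction with a mean of at least 10, no overlap of the groups and no predicted or clone name, called list members, and, in lists, the smallest p-values. The members and lists were chosen with earlier results of these data known. Alternatives changed the pseudocount, the filter, the scaling, the libraries and the empirical Bayes settings; the correction for GC content and length (lowess span 0.3) and the leaving out of saline libraries were added after seeing the data.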

Additional observations from a re-analysis of the deposited data

Results flagged for a closer look

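The genotype difference after ovalbumin differed from that under saline, by the interaction test in limma, in 3 genes. For Junb the difference of differences was -1.14 (adjusted p = 0.0331), and it passed in 5 of 19 alternatives. For Muc16 it was 0.88 (adjusted p = 0.0481), and it passed in 1 of 19. For Hamp2, a relative of the iron hormone gene hepcidin, it was -5.47 (adjusted p = 0.00627), and it passed in 15 of 19. Hamp2 was listed at 0 in all 6 ovalbumin libraries, at 1.83, 0 and 0 units in WT under saline and at 62.1, 59.2 and 63.9 in the saline libraries labelled Has2+/-, so its value comes from the saline libraries.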

How the results depend on the processing

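After ovalbumin, 112 genes were higher and 69 lower. Without a filter on low values 58 were higher, with the 6 ovalbumin libraries alone 2 and 5, with empirical Bayes without trend and robust estimation 5 and 5, and with the GC and length correction 15 and 26. Leaving out 1 of the 12 libraries gave 11 to 462 higher and 6 to 308 lower genes. The interaction, with 1 gene upward and 2 downward, gave 0 upward with a pseudocount of 0.1 or 5, a mean of at least 10, median-of-ratios scaling or the GC and length correction, and 2 without trend and robust estimation. Downward it gave 0 with a pseudocount of 0.1 or a mean of at least 10, and 1 with median-of-ratios scaling or the GC and length correction. Leaving out 1 library gave 0 to 10 upward and 0 to 15 downward. Fitting fewer libraries leaves fewer degrees of freedom; the other causes were not tested. Has1 ran from -0.29 to 0.15 and Has2 from -0.089 to 0.57 without single libraries, changing sign in each case, and neither passed. Of 1080 values of 54 called genes under alternatives, 665 stayed past the threshold, 415 did not, and 0 changed direction. Of 440 counts of called list members, 212 were within 1.5 times, 217 smaller and 11 larger. A DESeq2 fit was not run, since the values are not counts. No paired analysis was possible because the columns carry no replicate number of the labels. Depth is unknown, so the counting error of low levels could not be estimated.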

Other observations

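Blood and fat genes also varied between the ovalbumin libraries. The summed level of 9 red cell and platelet genes was 7425 to 16912 units in WT and 17463 to 22850 in the libraries labelled Has2+/-, with a median log2 difference of 0.61 and 0 members past the threshold in limma (2 higher and 2 lower before adjustment). The summed level of 11 fat cell genes was 647 to 759 against 802 to 909 (median 0.36, 0 past the threshold, 2 higher and 0 lower unadjusted). Of 18 cytochrome P450 and detoxification genes 14 had positive differences (median 0.32) and 0 passed (3 higher and 0 lower unadjusted).

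Among called genes outside the naming rule, chosen after their values were seen, the predicted gene Gm20716 on chromosome 2 stood at 0, 5.17 and 1 units in WT and 16, 27.9 and 25.7 in the libraries labelled Has2+/- (log2 difference 3.35, limma adjusted p = 0.00676; lost without Has2+/- ovalbumin library 2 (adjusted p = 0.054)). Bmp10, a ligand made by atrial heart muscle, stood at 1.92, 4.67 and 4.92 in WT and was listed at 0 in all 3 libraries labelled Has2+/-, whereas the summed level of heart muscle genes was higher there; its call was lost without 11 of the 12 libraries.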
